A study of Rattus norvegicus with 6 samples.

Results

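The neural crest specifier transcription factors are the genes that turn cells at the edge of the embryonic neural plate into migratory neural crest. They were taken here as 10 named genes, the SoxE factors Sox9 and Sox10, the Snail factors Snai1 and Snai2, the Twist factors Twist1 and Twist2, the AP-2 factors Tfap2a and Tfap2b, and Pax3 and Foxd3. Each gene was represented by the probe set that carries its symbol alone and has the highest mean over the arrays. Of the 10 genes, 9 had such a probe set, 1 each, among the 14506 genes tested, and Sox9 was not analysed here. The 9 are not independent samples, since all were read on the same 6 arrays.

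The arrays hold total RNA from neurospheres, clusters that float in culture, grown from carotid body cells of adult rats. The carotid body is a small organ beside the carotid artery that senses blood oxygen. The 3 samples labelled differentiated came from neural crest medium without mitogens in hypoxia at 3% O2, and the 3 labelled undifferentiated from complete neural crest medium with FGF, IGF-1, EGF and ET-1 in normoxia. All were grown for 10 days. The strain and age in numbers are not given, nor whether replicates were separate animals or cultures, so the spread behind each p-value is that of these samples and may be technical. Mitogens and oxygen changed together and cannot be told apart. The series set spheres rich in neuronal cells beside spheres rich in undifferentiated cells to compare their molecular pathways.

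In the embryo Pax3 and the AP-2 factors act early, at the border of the neural plate, and are then reused as specifiers beside Foxd3, the Snail factors, the Twist factors and the SoxE factors. Snail and Twist proteins can drive a loss of epithelial contacts, a step by which crest cells leave the neural tube. Both families stay active in mesenchyme. Sox10 is kept in crest-derived glia, and Sox9 drives cartilage. The carotid body is itself built from neural crest, with glomus cells, which sense oxygen and make catecholamines, and glia-like sustentacular cells around them.

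As a check of the labels, Th was read first. Th, tyrosine hydroxylase, which sets the rate of catecholamine synthesis, read 10.73, 11.32 and 10.65 on the log2 scale in the arrays labelled differentiated, against 13.76, 13.59 and 13.91 in those labelled undifferentiated. The arrays labelled differentiated, the neuron-rich ones by the series' description, were all lower, with a log2 difference of -2.86 ± 0.18 (SE, limma adjusted p = 5.09e-07). Th thus did not follow the labels. Whether the labels were exchanged was not tested. If they were, the direction of each difference and the medium and oxygen given for each group would be reversed. Each group is called by its label here, and each difference is labelled differentiated minus labelled undifferentiated, in log2 units. Arrays of the same group correlated at 0.9857 to 0.9927 over all probe sets, and arrays of different groups at 0.9590 to 0.9696.

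RefSeq promoter sequence of the GRCr8 assembly was matched for 5 of the 10 genes. Those of Snai1, Twist1 and Twist2 are shown, the matched genes with the largest log2 differences (1.52, 1.41 and 0.96). Foxd3, which was also higher in the arrays labelled differentiated (0.35), and Pax3 (0.07) were matched too. Each run is the 250 bases before the annotated transcript start, 5′ to 3′ on the gene's strand. Capitals mark ACGTG and GCGTG, the core letters bound by hypoxia-inducible factors, in either orientation, so that a match on the other strand reads CACGT or CACGC.
Snai1, chr3:176667226-176667475, + strand: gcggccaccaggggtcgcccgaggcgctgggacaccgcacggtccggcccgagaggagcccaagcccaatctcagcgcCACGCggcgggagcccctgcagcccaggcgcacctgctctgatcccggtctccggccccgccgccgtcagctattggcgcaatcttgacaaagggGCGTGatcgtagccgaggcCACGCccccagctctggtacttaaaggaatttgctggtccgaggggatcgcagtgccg
Twist1, chr6:56402059-56402308, + strand: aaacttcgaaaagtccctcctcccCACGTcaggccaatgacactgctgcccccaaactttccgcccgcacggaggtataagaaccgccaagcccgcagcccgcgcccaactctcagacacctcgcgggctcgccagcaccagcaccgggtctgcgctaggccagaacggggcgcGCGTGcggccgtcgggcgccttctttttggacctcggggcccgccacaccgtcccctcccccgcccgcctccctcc
Twist2, chr9:99821992-99822241, + strand: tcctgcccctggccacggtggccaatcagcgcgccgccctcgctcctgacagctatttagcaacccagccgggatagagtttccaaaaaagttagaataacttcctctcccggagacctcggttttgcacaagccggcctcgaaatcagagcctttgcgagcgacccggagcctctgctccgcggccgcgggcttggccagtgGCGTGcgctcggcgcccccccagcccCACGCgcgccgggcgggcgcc

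The Snai1 window held 3 such cores, all GCGTG, starting 172, 77 and 58 bases before the start. Twist1 had an ACGTG 226 bases and a GCGTG 76 bases before it, and Twist2 had 2 GCGTG cores, 47 and 21 bases before it. Of the 33465 windows of this length with no ambiguous base, 36.7% held an ACGTG or a GCGTG. The shown windows were 69.6% (Snai1), 69.2% (Twist1) and 67.2% (Twist2) G or C. No share was taken over windows of like content. Foxd3 and Pax3, whose windows are not shown, also held cores, among them in each a CACGTG, which reads as ACGTG on either strand and is also an E-box (CANNTG, the core letters bound by basic helix-loop-helix factors such as the Twist proteins). Of the shown windows, that of Snai1 had 1 E-box and those of Twist1 and Twist2 had 0, where 65.5% of all windows had one. The Snai1 E-box, 142 bases before the start, was of the form CACCTG or CAGGTG that Snail proteins bind, present in 15.9% of all windows. These are matches of letters, and no binding was measured.

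Of the 9 genes measured, 7 rose in the arrays labelled differentiated, 0 fell and 2 did not pass the test, Sox10 and Pax3. Snai1 and Twist1 changed most, by over a log2 unit each, followed by Twist2, Snai2, both AP-2 genes and Foxd3. A gene counted as changed at an adjusted p under 0.05 in limma's moderated test, two-sided, with Benjamini-Hochberg adjustment over all 14506 genes. By that rule 29.5% of all genes changed, 14.7% rose and 14.9% fell. The median difference was 0.66 over the 9 genes and 0.06 over all genes. In the same 7 genes the lowest array labelled differentiated lay above the highest array labelled undifferentiated, a pattern found in 22.5% of all genes. A log2 difference of at least 1 was reached by 2 of the 9, and by 3.21% of all genes. A change in the number of cells expressing a gene and a change in its RNA per cell cannot be told apart in such bulk samples.

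**Figure D1:**
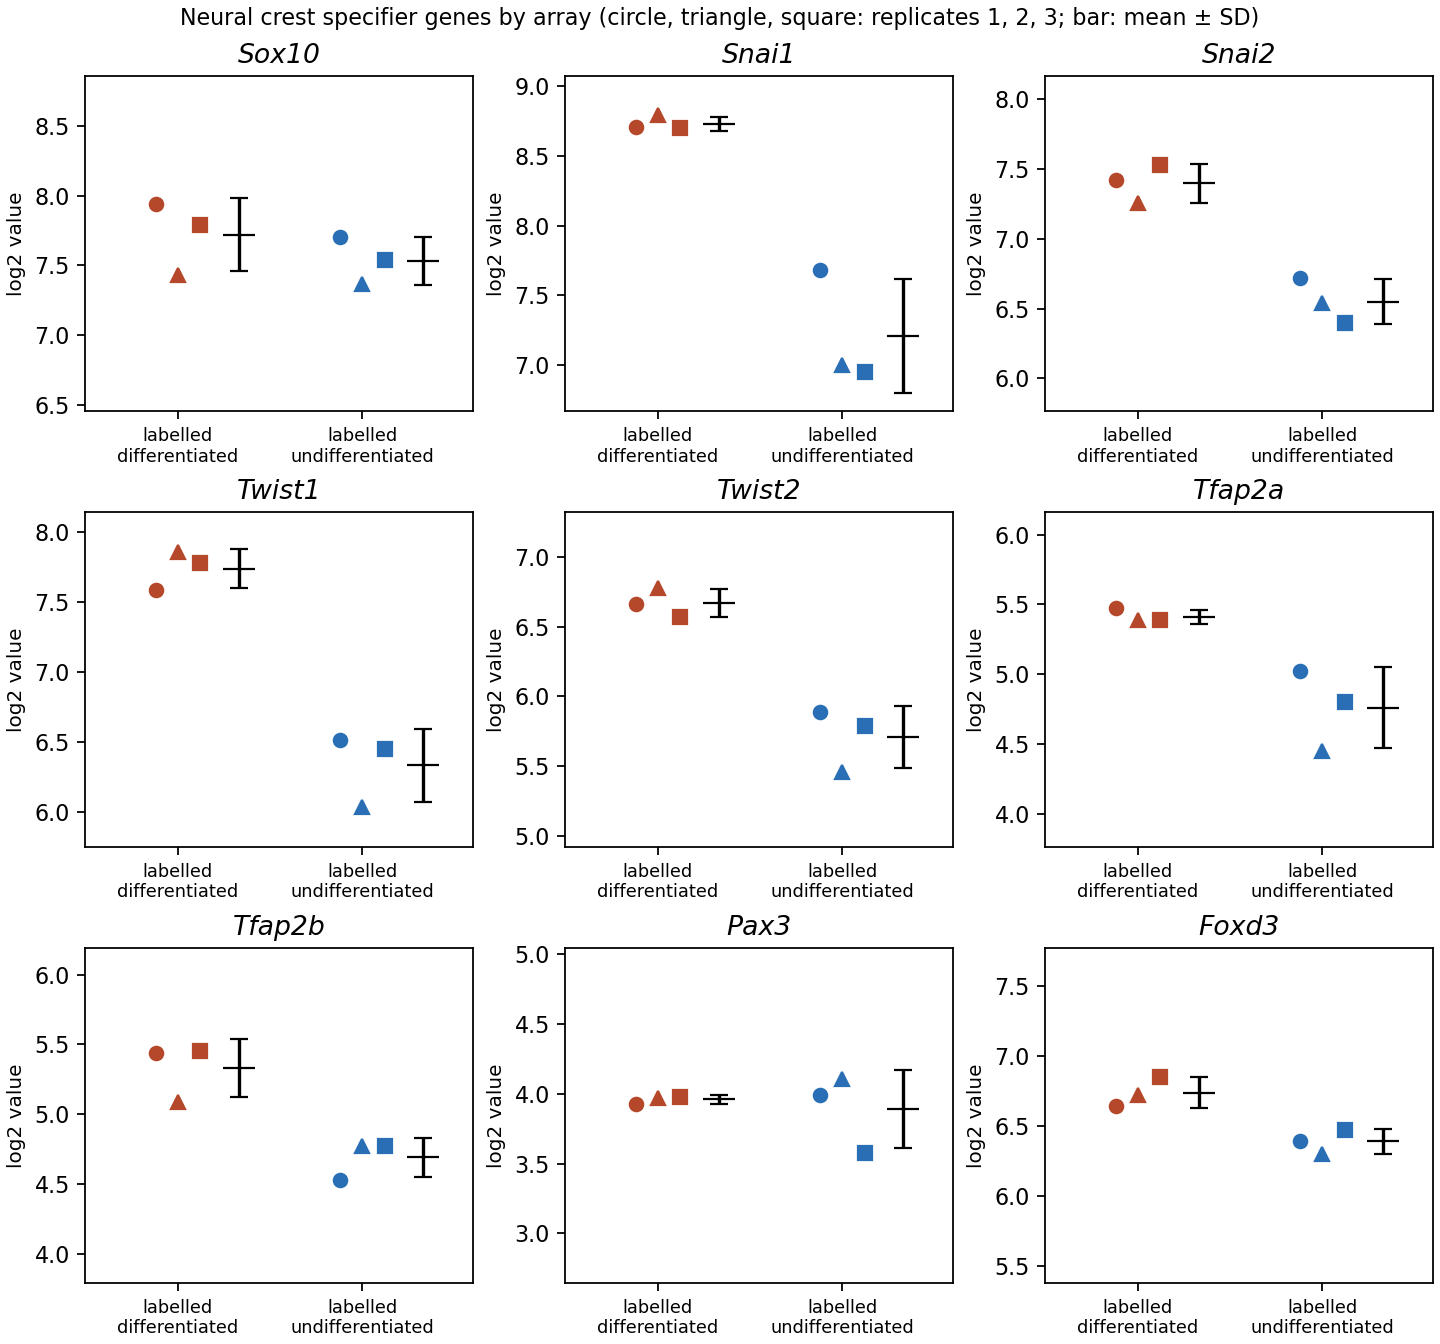
Log2 values of the 9 measured genes, 1 panel each with its own log2 axis of equal span, in the 3 arrays labelled differentiated (left) and the 3 labelled undifferentiated (right); symbols mark the replicate number and bars the mean ± SD. The groups are apart in 7 panels and overlap for Sox10 and Pax3.

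Snai1, a zinc finger repressor of epithelial genes such as E-cadherin, read 8.71, 8.79 and 8.70 in the arrays labelled differentiated, against 7.68, 7.00 and 6.95 in those labelled undifferentiated. The arrays labelled differentiated lay close together, while undifferentiated replicate 1 stood above the others of its group and still 1.02 below the nearest array labelled differentiated. Snai1 rose by 1.52 ± 0.17 (SE), a 2.87-fold difference with a 95% interval of 2.22 to 3.71 (limma adjusted p = 4.57e-05). Without undifferentiated replicate 1 the difference was 1.76.

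Snai2, or Slug, the Snail factor most used by crest cells leaving the neural tube in chick, read 7.42, 7.26 and 7.53 in the arrays labelled differentiated, against 6.72, 6.54 and 6.40 in those labelled undifferentiated. Both groups were tight, and a gap of 0.54 separated them. Snai2 rose by 0.85 ± 0.12 (SE), 1.80-fold with a 95% interval of 1.50 to 2.16 (limma adjusted p = 0.000259).

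Twist1, a basic helix-loop-helix factor needed for the cranial mesenchyme of mice, read 7.59, 7.86 and 7.78 in the arrays labelled differentiated, against 6.51, 6.03 and 6.45 in those labelled undifferentiated. Its gap between groups, 1.07, was the widest of the 9 genes, although undifferentiated replicate 2 lay well below the other arrays of its group. Twist1 rose by 1.41 ± 0.14 (SE), 2.65-fold with a 95% interval of 2.14 to 3.28 (limma adjusted p = 2.04e-05).

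Twist2, its close relative, first described in dermis as Dermo1, read 6.66, 6.78 and 6.57 in the arrays labelled differentiated, against 5.89, 5.46 and 5.79 in those labelled undifferentiated. As for Twist1, undifferentiated replicate 2 was the lowest array. Twist2 rose by 0.96 ± 0.13 (SE), 1.94-fold with a 95% interval of 1.58 to 2.38 (limma adjusted p = 0.000243).

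The AP-2 genes read lower on their probe sets, near the array medians of 5.05 to 5.13. In the arrays labelled undifferentiated both lay below them. Tfap2a, an activator that works early at the neural plate border and again in crest and skin, read 5.47, 5.39 and 5.39 in the arrays labelled differentiated, against 5.02, 4.45 and 4.80 in those labelled undifferentiated. The groups did not overlap, and the spread was in the arrays labelled undifferentiated (SD 0.29, against 0.05 in those labelled differentiated, n = 3 each). Tfap2a rose by 0.66 ± 0.16 (SE, limma adjusted p = 0.0079).

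Tfap2b, an AP-2 factor also known from the sympathetic lineage, read 5.44, 5.09 and 5.45 in the arrays labelled differentiated, against 4.53, 4.77 and 4.77 in those labelled undifferentiated. Here the low arrays were differentiated replicate 2 and undifferentiated replicate 1, and the gap between groups was 0.32. Tfap2b rose by 0.64 ± 0.15 (SE, limma adjusted p = 0.00696). An equal-variance test without moderation called neither AP-2 gene (adjusted p = 0.0726 for Tfap2a and 0.0566 for Tfap2b).

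Foxd3, a forkhead factor that keeps crest cells multipotent and is kept in early crest-derived glia, read 6.64, 6.72 and 6.85 in the arrays labelled differentiated, against 6.39, 6.30 and 6.47 in those labelled undifferentiated. All 3 arrays labelled differentiated were higher, but by a gap of only 0.17. Foxd3 rose by 0.35 ± 0.11 (SE), 1.27-fold with a 95% interval of 1.08 to 1.50 (limma adjusted p = 0.0317). Its call was the least stable of the 7. It was lost without undifferentiated replicate 1 (adjusted p = 0.0818) or 2 (0.0966), without differentiated replicate 2 (0.0561) or 3 (0.115), with each array centred on its median (0.0657) and without moderation (0.0566). Over all alternatives its adjusted p ran from 0.018 to 0.115.

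Sox10, the factor that maintains crest stem cells and then glia, read 7.94, 7.43 and 7.79 in the arrays labelled differentiated, against 7.70, 7.37 and 7.54 in those labelled undifferentiated. The groups overlapped, and replicate 2 was the lowest array of each. The difference was 0.18 ± 0.14 (SE, limma adjusted p = 0.386), with a 95% interval of -0.13 to 0.49, so a rise to 1.41-fold lies within it. When single arrays were left out the difference ran from 0.07 to 0.33, and it did not pass the test under any of the alternatives run.

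Pax3, a paired-box factor of the neural plate border, crest and muscle precursors, read 3.93, 3.97 and 3.98 in the arrays labelled differentiated, against 3.99, 4.11 and 3.58 in those labelled undifferentiated. These values lay a little above the arrays' lower quartiles of 3.37 to 3.52 and below 4.44, the value that 40% of all probe set means do not exceed (called dim here), and Pax3 was the only dim gene of the 9. The difference was 0.07 ± 0.16 (SE, limma adjusted p = 0.812), with a 95% interval of -0.29 to 0.43. Its sign turned without undifferentiated replicate 3 (-0.09). How far a probe set at this level stood above background is not known here.

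**Figure D2:**
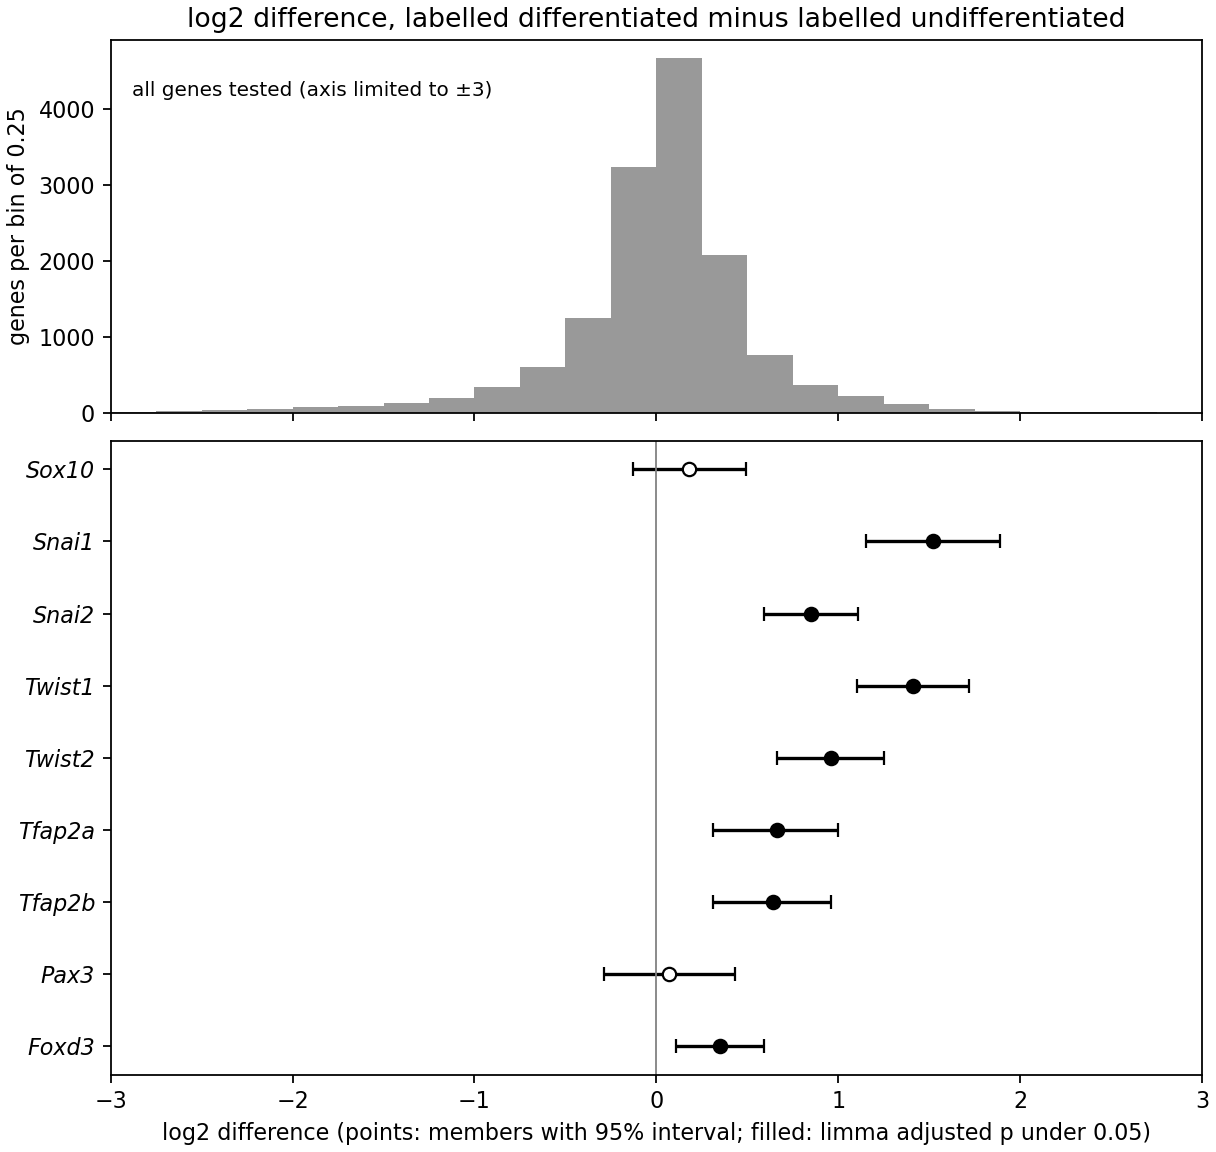
Top, number of genes per bin of log2 difference over the genes tested, shown from -3 to 3; bottom, the 9 measured genes with their 95% intervals, filled where the limma adjusted p was under 0.05. Snai1 (1.52) and Twist1 (1.41) lie farthest right, and the intervals of Sox10 and Pax3 include 0.

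Snai1 and Twist1 had the larger estimated rise of their families, with differences that the exact test used here, whose smallest p is 0.1, could not call. Per array, the log2 value of Snai2 minus that of Snai1 was compared between groups, which sets the 2 changes side by side without comparing the levels of different probe sets. The change of Snai2 was smaller than that of Snai1 by 0.67 (log2 difference of the changes -0.67), and that of Twist2 smaller than that of Twist1 by 0.45 (-0.45). Both gave p = 0.1 in an exact two-sided permutation test, the smallest that 3 arrays against 3 allow, and adjusted p = 0.15 over the 3 pairs compared in this exact test. For Tfap2b and Tfap2a the difference of the changes was -0.02 (exact permutation p = 1). Its sign depended on single arrays, with 0.17 without undifferentiated replicate 2. The probe sequences were not used here, so signal shared between related genes was not tested.

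The arrays of a group did not rank alike for each gene, but some recurred at the low end. Undifferentiated replicate 2 was the lowest of its group for 5 of the 9 genes (Sox10, Twist1, Twist2, Tfap2a and Foxd3), and differentiated replicate 2 for 4 of the 9 (Sox10, Snai2, Tfap2a and Tfap2b). Undifferentiated replicate 1 was the highest of its group for the Snail and Twist genes, for Sox10 and for Tfap2a.

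Lists of genes that work with or beneath the specifiers held changes in both directions except for the Sox9-linked cartilage genes, and the share of genes that changed lay between 37.5% and 53.8% of each list, against 29.5% of all genes. Of 23 measured other regulators of the crest network, 10 rose, 2 fell and 11 did not pass (median 0.34). Myc, which keeps crest cells cycling, rose by 1.02 ± 0.13 (SE, limma adjusted p = 0.00012), and the homeobox gene Meis2 rose by 1.04 ± 0.15. Id2 and Id1, inhibitors that tie up the partners of helix-loop-helix factors, fell by 1.05 ± 0.14 and 0.84 ± 0.14. Of the other Id genes, chosen with their values known, Id3 rose by 0.62 ± 0.18 (limma adjusted p = 0.0224) and Id4 differed by 0.20 ± 0.22 (adjusted p = 0.568).

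Among 26 measured cofactors and partners 8 rose, 6 fell and 12 did not pass (median 0.12). The E proteins, with which Twist factors form dimers, were divided. Tcf3 read 7.56, 7.42 and 7.45 in the arrays labelled differentiated, against 6.74, 6.58 and 6.66 in those labelled undifferentiated, and rose by 0.82 ± 0.10 (SE, limma adjusted p = 9.31e-05). Tcf4 read 9.02, 8.72 and 8.81 in the arrays labelled differentiated, against 9.63, 9.62 and 9.59 in those labelled undifferentiated, and fell by 0.76 ± 0.10 (limma adjusted p = 0.000184). Tcf12, the other E protein of the list, chosen with its value known, fell by 0.52 ± 0.09 (limma adjusted p = 0.000902). So 1 E protein gene rose and 2 fell, where 14.7% of all genes rose and 14.9% fell. Hand2, a helix-loop-helix partner of Twist1 that is also a sympathetic lineage factor, fell by 1.93 ± 0.17 (limma adjusted p = 9.78e-06). Ajuba, a LIM protein that binds Snail repressors, rose by 1.47 ± 0.13 (limma adjusted p = 7.03e-06). Both Kctd15 and Kctd1, inhibitors of AP-2 factors, rose, by 0.94 and 0.78, and were chosen with their values known.

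The epithelial and mesenchymal genes of the crest transition list, 22 of them measured, gave 6 rises and 5 falls with a median of 0.03. The list was divided by role after its values were seen. The 8 mesenchymal genes held all 6 rises and 0 falls (median 0.60). The 14 epithelial genes held 0 rises and all 5 falls (median -0.25). Over all genes 14.7% rose and 14.9% fell. Of the epithelial genes, 9 were dim. Prrx1, a homeobox gene of mesenchyme, rose by 1.77 ± 0.11 (SE, limma adjusted p = 4.5e-07), and the matrix protein Sparc by 0.93 ± 0.15. Krt18, a keratin of simple epithelia, fell by 1.62 ± 0.22 (limma adjusted p = 0.000228), but by 0.65 when its 3 probe sets were averaged. Epcam, an epithelial adhesion protein, read 3.82, 3.60 and 3.35 in the arrays labelled differentiated, against 4.83, 4.83 and 4.91 in those labelled undifferentiated, and fell by 1.26 ± 0.15. Cdh1, the E-cadherin gene that Snail proteins repress, fell by 0.56 ± 0.17 from dim values (limma adjusted p = 0.0294), and Zeb1 and Zeb2, repressors of the same step, rose by 0.60 and 0.59. Cdh1, Zeb1 and Zeb2 fell outside the naming rule and were chosen with their values known.

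Genes linked to Sox10 showed no common direction. Of 16 measured glial, melanocyte and autonomic genes 4 rose, 2 fell and 10 did not pass (median 0.13). Only 3 were called without undifferentiated replicate 2, without undifferentiated replicate 3 or without differentiated replicate 3. Ret, the GDNF receptor of the autonomic lineage, which glomus cells also express, read 6.21, 7.30 and 6.35 in the arrays labelled differentiated, against 10.04, 10.34 and 10.30 in those labelled undifferentiated, and fell by 3.61 ± 0.23 (SE, limma adjusted p = 7.5e-07). Mbp, a myelin protein, fell by 1.97 ± 0.12, but by 1.36 when its 2 probe sets were averaged. Mitf, the master factor of melanocytes, which other cells also use, rose by 0.68 ± 0.16 (limma adjusted p = 0.00706). Tyrp1, a melanocyte enzyme, rose by 0.61 ± 0.17 from dim values, and its call was lost without undifferentiated replicate 2 (adjusted p = 0.0562), undifferentiated replicate 3 (0.0515) or differentiated replicate 3 (0.068).

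Of 17 measured cartilage genes linked to Sox9, 7 rose, 0 fell and 10 did not pass (median 0.30). The fibrillar collagen Col11a1 rose by 1.41 ± 0.14 (SE, limma adjusted p = 2.55e-05) and the proteoglycan Acan by 1.24 ± 0.15 (limma adjusted p = 7.65e-05). Sox9 itself has no value here, so these genes stand beside no measure of it.

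**Figure D3:**
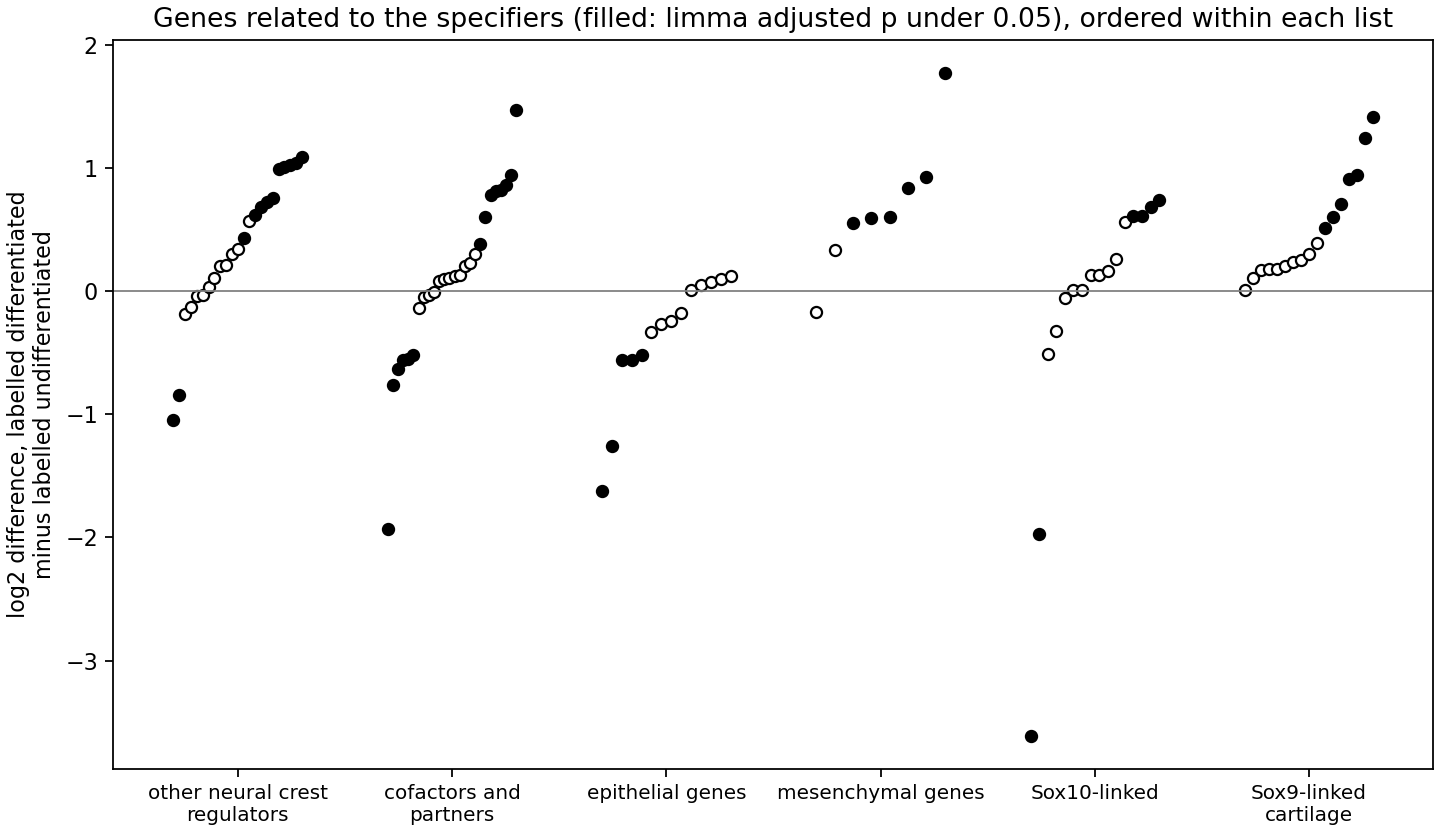
Log2 differences of the genes related to the specifiers, 1 point per measured gene ordered within its list, filled where the limma adjusted p was under 0.05. Filled points lie on both sides of 0 among the other regulators, the cofactors and the Sox10-linked genes, above 0 for mesenchymal and cartilage genes, and below 0 for epithelial genes.

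Markers of fibroblasts and glomus cells, among the cell types the spheres could hold, differed between the groups as well. Of 10 fibroblast markers, all measured, 9 rose and 0 fell, which is 90% of them against 29.5% of all genes. Their mean log2 level was 10.72 to 10.84 in the arrays labelled differentiated, against 9.44 to 9.75 in those labelled undifferentiated. The rise of the Snail and Twist genes came with a rise of fibroblast markers in the same arrays, whose part in it was not tested. The order of arrays within a group rests on 3 values and was not tested against the markers. Some spreads were small, such as 0.09 for Snai1 in the arrays labelled differentiated. Undifferentiated replicate 2 was the lowest of its group in the fibroblast markers, Twist1 and Twist2, while replicate 3 was the lowest for Snai1 and Snai2. Differentiated replicate 2 was the highest of its group in the fibroblast markers, Snai1, Twist1 and Twist2 and the lowest for Snai2.

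All 11 measured glomus markers fell (100%, against 29.5% of all genes changed). Their mean levels were 7.57 to 8.04 in the arrays labelled differentiated and 10.55 to 10.69 in those labelled undifferentiated. Of 8 measured smooth muscle markers 4 rose and 1 fell (62.5%), with mean levels of 7.61 to 7.65 in the arrays labelled differentiated and 7.33 to 7.38 in those labelled undifferentiated. The 1 that fell, Rgs5, had the largest change of that list (-2.28). Of 8 measured glial markers of 10, 1 rose and 1 fell, which is 25% of them against 29.5% of all genes, and the mean levels overlapped, at 6.15 to 6.73 in the arrays labelled differentiated and 6.46 to 6.67 in those labelled undifferentiated. That glial mean joins a rise of S100b (0.74), whose groups overlapped, and a fall of Mbp (-1.97). The 2 arrays numbered 2 were the lowest of their groups for Sox10 and for the glial mean. Undifferentiated replicate 2 was the lowest for the fibroblast mean as well. Of 8 macrophage markers 2 rose and 1 fell (37.5%), with mean levels of 7.25 to 7.96 in the arrays labelled differentiated and 7.15 to 7.69 in those labelled undifferentiated. Of 7 measured endothelial markers 0 rose, 2 fell (28.6%) and 3 were dim. Their mean levels were 4.69 to 4.84 in the arrays labelled differentiated and 5.13 to 5.18 in those labelled undifferentiated. The 2 that fell were Cldn5 (-2.31), with the largest change of that list, and Egfl7 (-0.5). The 3 measured melanocyte markers were all dim, with mean levels of 3.15 to 3.31 in the arrays labelled differentiated and 2.86 to 2.91 in those labelled undifferentiated, below the lower quartiles. No marker is at 0 on this log2 scale, and the part of these cell types in the differences of the specifiers was not tested.

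**Figure D4:**
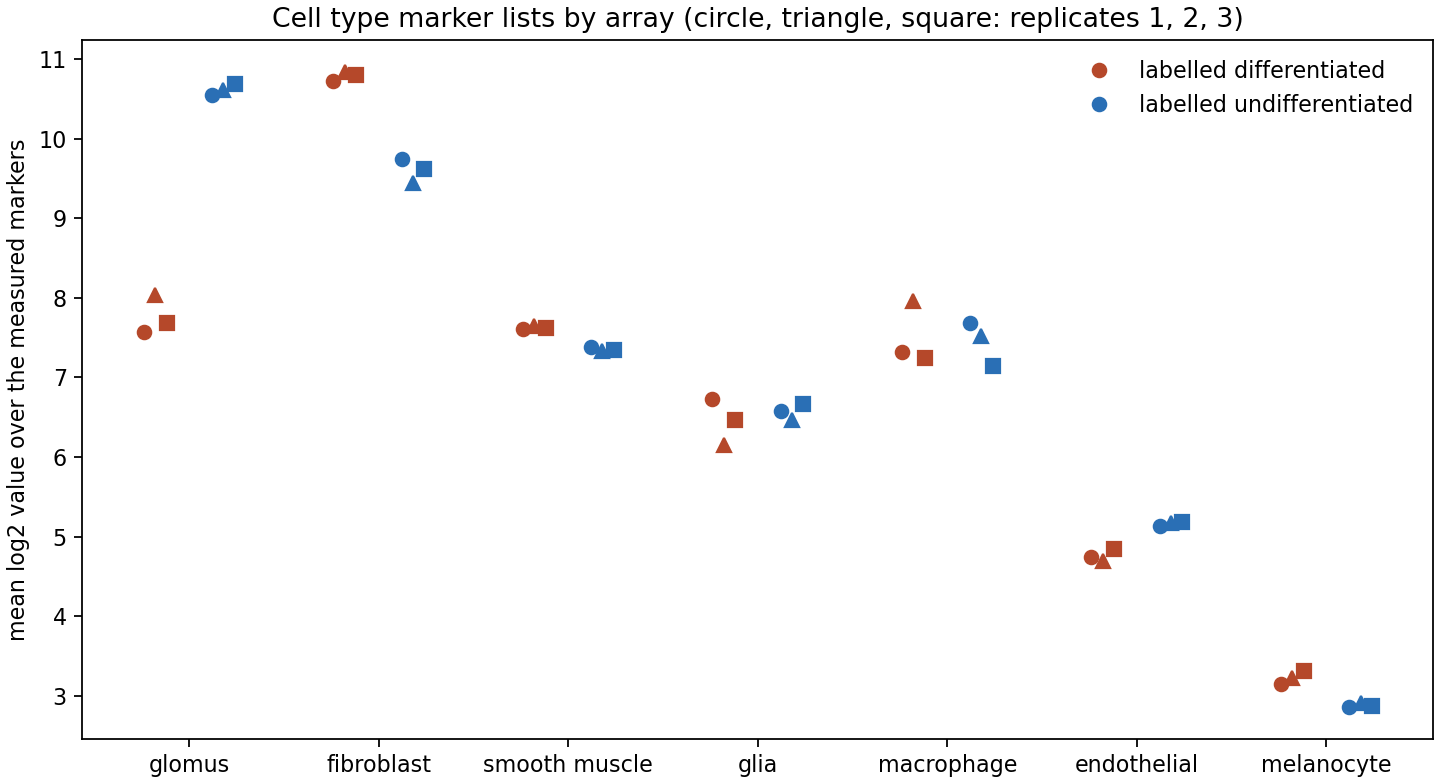
Mean log2 value over the measured markers of each cell type, 1 point per array, labelled differentiated left of labelled undifferentiated, with symbols for the replicate number. Fibroblast markers are higher and glomus markers lower in the arrays labelled differentiated, and the glial and macrophage points of the groups overlap.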

How the data were processed

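Total RNA (100 ng per array, per the labels' protocols) was labelled with biotin and read on 6 Affymetrix arrays. The authors deposited log2 values, 1 for each probe set on each array, ranging over 0.42 to 14.09. The base was inferred from this range; the sources used here do not give the background correction or normalization. No further scaling was applied. The number of arrays limits the precision.

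Of 29214 probe sets, 15310 carried exactly 1 gene symbol in the platform's annotation, 323 several, and 13581 were absent from it and stay unnamed; 99.8% of the single-gene ones matched the GRCr8 gene table by gene ID. The brightest probe set stood for each of 14506 genes. Groups and replicate numbers came from the sample titles. The 6 arrays were fitted together with limma 3.58.1 under R 4.3.3, with eBayes, its mean-variance trend and no block; the script was tested on simulated data. Deviations from the group means of same-numbered arrays correlated at 0.09, 0.07 and -0.01, against -0.10 to 0.02 for arrays of different numbers. The values 0.09 and 0.07 were small but lay above that range. The numbers were not taken as pairs in the main fit, and a block on them was run as an alternative.

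The genes and lists were chosen with earlier results of these data known, so lists are described by counts, without set tests. The genes named by rule are all members, Th, and from each related list the 2 with the smallest p among those that rose and the 2 among those that fell. Other genes named, markers included, were chosen with their values known. Alternatives were the replicate block, 2 scalings, a filter on dim genes (40th percentile), other probe set rules, leaving out each array, other variance settings, an unmoderated test and a threshold of 0.01. Promoter letters were searched on both strands in Python 3.11.15, and figures were drawn with matplotlib 3.10.9.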

Additional observations from a re-analysis of the deposited data

How the results depend on the processing

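The calls of Snai1, Snai2, Twist1 and Twist2 and the lack of a call for Sox10 held under all 17 alternatives, in the same direction. The number of specifier genes called was 7 of 9, 6 to 7 with 1 array left out at a time, 6 with medians centred, 6 at a threshold of 0.01 and 4 with the unmoderated test, which called 2740 genes in all, against 4286 with moderation. With the replicate number as a block 7 of the 9 were called, and the block changed no call of the 9; with dim genes left out Pax3 was not tested and 7 of 8 were called. Pax3 turned to -0.09 without undifferentiated replicate 3. The change of Tfap2b minus that of Tfap2a, -0.02, ran from -0.23 to 0.17 with 1 array left out at a time, and was 0.09 without differentiated replicate 2; the causes were not tested. The number of Sox10-linked genes called, 6, ran from 3 to 7 when each array was left out; the counts of the other related lists stayed within 1.5 times under the scalings, the block, the dim filter and left-out arrays. For Th and the 18 list genes named by rule, the same alternatives, added after seeing the data, kept 314 of 321 calls and reversed 0; the unmoderated test lost Id1 (adjusted p = 0.0559), Mitf (0.085) and Tyrp1 (0.0866), and the threshold of 0.01 lost Tyrp1. Dim probe sets have an unknown distance from background, which limits Pax3, Tyrp1 and the epithelial genes most.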
